A study of Mus musculus with 4 samples.

Results

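The glucocorticoid receptor (GR) sites described here are those that were listed after both 1 h and 12 h of corticosterone and held no more than 0.5 times as many normalised tags at 12 h as at 1 h. They are called halved sites below. A 1 h peak counted as shared when it overlapped a 12 h peak by at least 1 bp, and it was paired with the overlapping peak whose centre lay nearest. Of 2436 shared sites 599 met the rule, which is 24.6% of them, out of 6086 distinct sites in the whole series. The members were chosen by this ratio, which is the same comparison of 12 h with 1 h that the values below give, so those values are a description and carry no test.

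GR is a nuclear receptor that stays largely in the cytoplasm, bound to chaperones, until a glucocorticoid binds it. It then enters the nucleus, binds DNA at palindromic response elements or through other factors such as AP-1, and raises or lowers transcription of nearby genes. Corticosterone is the main natural glucocorticoid of mice. In mammary epithelium it acts with lactogenic hormones on differentiation and survival.

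Chromatin immunoprecipitation with sequencing (ChIP-seq) was done with a cocktail of GR antibodies in 33AP1C9 cells, a mouse mammary epithelial line. For 1 antibody of the cocktail the labels give a different catalogue number in each library. Whether the antibodies at 12 h and 1 h differed is thus uncertain, and if so cannot be told apart from time in every ratio below. The line descends from C127 cells, carries integrated copies of an MMTV-pp7 reporter (a hormone-responsive viral promoter) and expresses PP7 coat protein tagged with GFP; these features were shared by all groups. Cells were untreated (0 h), or had received 600 nM corticosterone for 1 h or for 12 h, after 48 h in medium with hormone-depleted serum. There was 1 library per condition, with 79203826 tags at 0 h, 90556119 at 1 h and 97749688 at 12 h, so no replicate spread exists and no test between conditions was possible. Both treated lists had been called against the untreated library, at a fold of at least 6, so every site described stood above it by construction. The lists do not show which genes the cells express, so the cell type was not checked. Tags are normalised to a library of 10000000 unless called raw, positions are in mm10 and are those of the 1 h peak, and each interval of a tag ratio covers counting error only.

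Sequence was at hand for RefSeq promoter windows (250 bases before to 50 after a start site, assembly GRCm38.p6), and 16 of the 599 halved sites overlapped such a window, each a different one of 32851. The bases that lie both in the window and in the 1 h peak are shown, on the strand of the gene, for the metallothionein genes, which are classic hormone targets, and for the other windows with a receptor or AP-1 motif in that stretch, so that their letters can be compared. Capitals mark the receptor motif (AGAACA, 3 free bases, TGTTCT) with up to 2 mismatches in its 12 fixed bases, its hexamer AGAACA, the AP-1 motif TGANTCA, and the metal response core TGCACNC or TGCGCNC, each on both strands. The hexamer can lie within a full motif.
Mt1 (chr8:94178900-94179138, + strand): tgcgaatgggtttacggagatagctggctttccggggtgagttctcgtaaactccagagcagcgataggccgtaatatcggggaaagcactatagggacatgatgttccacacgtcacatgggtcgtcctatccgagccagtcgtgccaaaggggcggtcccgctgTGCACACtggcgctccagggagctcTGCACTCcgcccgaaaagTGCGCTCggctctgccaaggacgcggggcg
Gm39227, on the side of Mt2 (chr8:94171606-94171745, - strand): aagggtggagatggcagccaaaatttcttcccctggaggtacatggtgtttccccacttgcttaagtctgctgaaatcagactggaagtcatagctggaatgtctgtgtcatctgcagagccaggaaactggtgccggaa
Mir100hg (chr9:41474643-41474845, + strand): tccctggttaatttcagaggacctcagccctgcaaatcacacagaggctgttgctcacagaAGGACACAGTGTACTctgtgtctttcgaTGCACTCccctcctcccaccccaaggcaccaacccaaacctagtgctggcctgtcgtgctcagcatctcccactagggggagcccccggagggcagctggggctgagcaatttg
Gm40501 (chr8:64880952-64881177, - strand): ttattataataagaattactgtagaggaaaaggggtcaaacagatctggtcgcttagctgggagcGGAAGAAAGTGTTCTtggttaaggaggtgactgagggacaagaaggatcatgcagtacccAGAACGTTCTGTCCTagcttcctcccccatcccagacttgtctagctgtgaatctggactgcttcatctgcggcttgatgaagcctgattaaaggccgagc
4930543I11Rik (chr10:67785610-67785792, + strand): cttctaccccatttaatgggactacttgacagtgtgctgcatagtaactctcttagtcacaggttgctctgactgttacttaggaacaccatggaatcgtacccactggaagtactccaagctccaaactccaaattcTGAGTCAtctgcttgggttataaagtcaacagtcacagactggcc
Gm13415 (chr2:24440143-24440378, + strand): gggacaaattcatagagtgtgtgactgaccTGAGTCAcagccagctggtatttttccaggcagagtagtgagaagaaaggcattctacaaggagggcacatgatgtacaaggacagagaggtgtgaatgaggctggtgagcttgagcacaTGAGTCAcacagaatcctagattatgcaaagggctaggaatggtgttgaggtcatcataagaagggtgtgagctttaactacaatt

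These sequences differ in what they hold. The Mt1 sequence carries 3 metal response cores and neither a receptor motif nor a hexamer. The Gm40501 sequence carries 2 receptor motifs with 2 mismatches each, the first of which contains a hexamer, and the Mir100hg sequence carries 1 receptor motif with 2 mismatches and 1 metal response core. The 4930543I11Rik sequence has 1 AP-1 motif and the Gm13415 sequence has 2. Of the sequences that are not shown, 1, at Gm35268, has a hexamer. The stretch of Gm39227 inside the peak holds none of the 4 motifs, although the site there was among the strongest of the 16. Taking whole 300-base windows, 3 of 16 that overlapped a halved site held the receptor motif with up to 2 mismatches (18.8%, Wilson 95% interval 6.59 to 43%), against 6 of 29 (20.7%) that overlapped another shared site. Over all promoter windows the share was 1.84%. The hexamer was in 25% of windows at halved sites and 41.4% at other shared sites, against 19% of all windows. AP-1 was in 12.5% of windows at halved sites and 17.2% at other shared sites, against 7.81% of all windows. The metal response core was in 12.5% of windows at halved sites and 10.3% at other shared sites, against 25.7% of all windows. With 16 windows the intervals of the halved and other shared sites overlap for each motif, so no difference between these groups was detectable, and a match in letters is not a measured binding site.

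The sites at these windows differed in strength. The site at the start of 4930543I11Rik held 57.5 tags at 12 h against 117.7 at 1 h, and the one at Gm39227 held 46.2 tags at 12 h against 110.5 at 1 h. At the Mir100hg window, the start of the host transcript of a microRNA cluster, the values were 19.8 tags at 12 h against 62.9 at 1 h. The Gm13415 site had 23.1 tags at 12 h against 49.7 at 1 h. The weakest of those shown were Gm40501, with 12.6 tags at 12 h against 32.8 at 1 h, and Mt1, with 12.8 tags at 12 h against 27.3 at 1 h. The other 10 window sites held between 8.59 and 24.2 tags at 12 h, and between 20.1 and 60.2 at 1 h. Both protein-coding genes among the other windows, Myo1h (an unconventional myosin) and Map3k6 (a MAP kinase kinase kinase), lay in that range. Myo1h had 16.0 tags at 12 h against 46.2 at 1 h, and Map3k6 had 11.2 tags at 12 h against 37.3 at 1 h.

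Over all 599 halved sites the median was 17.5 tags at 12 h against 47.5 at 1 h, with ranges of 7.26 to 157 tags at 12 h and 15.6 to 325 at 1 h. Their log2 ratio of 12 h over 1 h ran from -3.00 to -1 with a median of -1.34, against a median of -0.49 over all 2436 shared sites. At 63 halved sites the ratio was 0.25 or less. At 198 halved sites (33.1%) the 12 h tags were under 2 times the lowest value of the 12 h list, 6.96. The 95% counting interval (Clopper-Pearson, from the raw tags) lay wholly below a ratio of 1 at each of the 599, where it did so at 61.8% of all shared sites. The interval uses the same tags as the rule, so its place below 1 at halved sites is no independent support. It lay wholly below 0.5 at 369 of the 599 (15.1% of all shared sites), and 230 reached up to 0.5 or beyond. Since the median shared site also held fewer tags at 12 h, the number depends on the scale: with the median ratio of shared sites set to 1, 228 sites were at 0.5 or less.

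**Figure D1:**
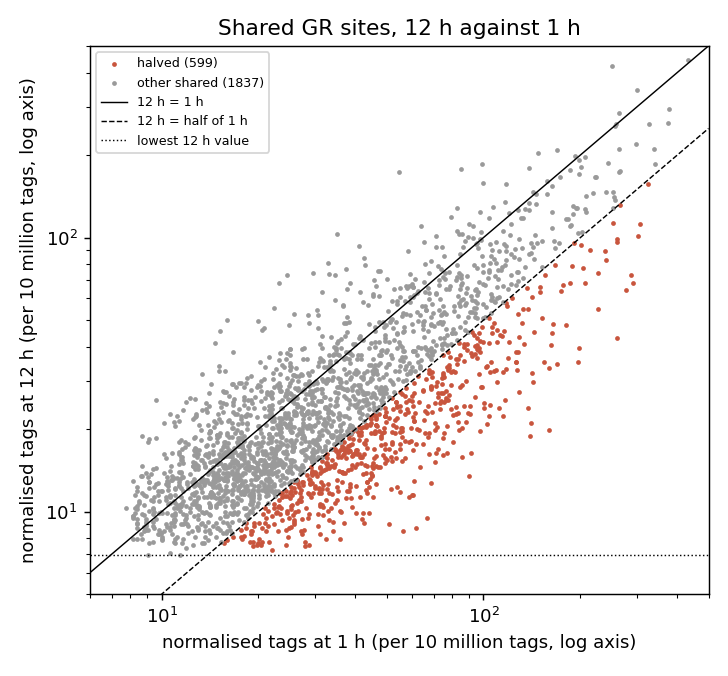
Normalised tags at 12 h (vertical, log axis) against 1 h (horizontal, log axis) for each shared site, with the 599 halved sites in red and the 1837 other shared sites in grey. The halved sites fill the band under the dashed line, and the lowest of them at 1 h held 15.6 tags; the lowest value of the 12 h list (dotted) was 6.96.

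Together the halved sites held 18.5% of the normalised tags of all shared sites at 12 h against 34.8% at 1 h. Their summed tags at 12 h were 0.358 times those at 1 h, over 181 kb of windows at 12 h and 169 kb at 1 h. For the other shared sites the ratio was 0.839, over 555 kb at 12 h and 518 kb at 1 h. The fold over the surrounding 10 kb, which the caller computed within each library, had a median of 10.4 at 12 h against 24.9 at 1 h at halved sites. At the other shared sites it was 12.2 at 12 h and 14.4 at 1 h. At all 599 sites that fold was lower at 12 h, and at 408 (68.1%) it was 0.5 times that at 1 h or less. Of the 1837 other shared sites, 29 (1.58%) had a ratio that low, and at 505 the fold was not lower. This comes from the same tags and is no independent support.

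Which sites could meet the rule was limited by the lists. A site below 13.9 tags at 1 h, 2 times the lowest 12 h value, could not be halved and still be listed, and among the 2130 shared sites above that level 28.1% were halved. The share was 5.41% (3.49 to 8.30%) at 15 to under 20 tags, 19.3% (16.1 to 22.9%) at 20 to under 30, and 37.0% (33.0 to 41.1%) at 30 to under 50. It was 43.5% (38.9 to 48.2%) at 50 to under 100 tags and did not climb further, with 41.6% (34.5 to 49.1%) at 100 to under 200 and 38.8% (26.4 to 52.8%) at 200 and over. In the 2 highest bands 96.1% and 100% of the 1 h peaks were also listed at 12 h, so that few sites escaped the count there.

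**Figure D2:**
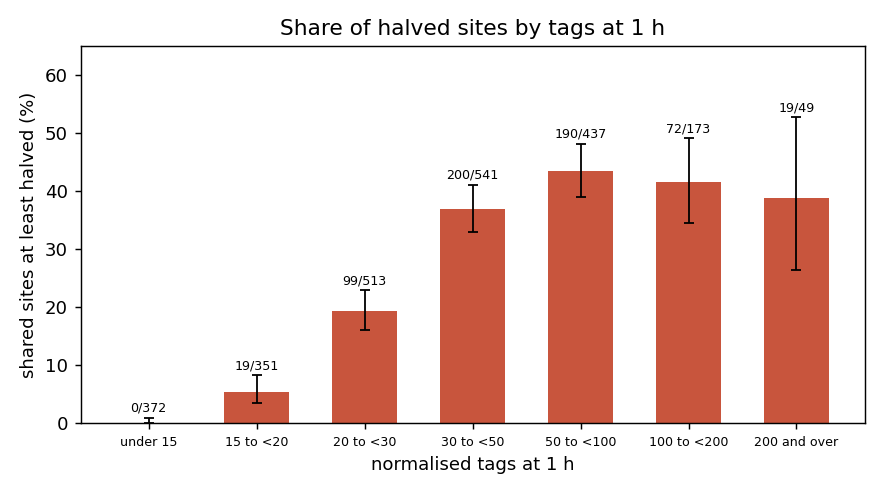
Share of shared sites that were halved (bars, percent) by normalised tags at 1 h, with Wilson 95% intervals and the counts above each bar. The share is 0 of 372 under 15 tags, where the rule can scarcely be met, and lies between 37.0% and 43.5% from 30 tags on.

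Among the halved sites with most tags at 1 h, the strongest lay 55.6 kb from Eif3h, a translation initiation factor gene (chr15:51730803-51731085). It held 157 tags at 12 h against 325 at 1 h (log2 ratio -1.04, -1.13 to -0.95), close to the limit of the rule. Within Pde4d, whose product degrades cAMP, a site had 112 tags at 12 h against 307 at 1 h. A site 89.2 kb from Tbl1xr1, a gene for a corepressor complex subunit, held 101 tags at 12 h against 302 at 1 h. These 3 keep more than 100 tags at 12 h, as do only 2 other halved sites.

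Deeper differences were seen at several sites of nearly the same 1 h strength. The site 32.3 kb from Dhx8, a splicing helicase gene (chr11:101700512-101700794), held 68.1 tags at 12 h against 291 at 1 h (log2 ratio -2.09, -2.22 to -1.97). Inside Foxp1, a forkhead transcription factor gene (chr6:99447215-99447497), a site had 64.6 tags at 12 h against 276 at 1 h (-2.10, -2.23 to -1.97). A site 65.7 kb from 4930432M17Rik (chr3:121604919-121605201) was the lowest of the strong ones, with 43.0 tags at 12 h against 260.4 at 1 h (-2.60, -2.75 to -2.45). The site near Rab21, an endosomal GTPase gene, had 131 tags at 12 h against 265 at 1 h. The sites inside Agfg2 and near Tpbpa, a trophoblast gene, had 96.7 and 98.8 tags at 12 h against 260.2 and 259 at 1 h. The sites that held 259 to 325 tags at 1 h thus spread over 43.0 to 157 tags at 12 h.

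The lowest ratio of all was at a site 51.9 kb from Ampd3, a gene of AMP deaminase (chr7:110715785-110716067). It held 19.9 tags at 12 h against 159 at 1 h, a log2 ratio of -3.00 (-3.22 to -2.78). Closer to Ampd3, within 25 kb, lay 2 shared sites, and neither was halved. A site 17.9 kb from Armc12 (chr17:28512846-28513128) held 18.9 tags at 12 h against 140 at 1 h (-2.89, -3.11 to -2.66). Inside Clvs1 (chr4:9444500-9444782) a site had 21.0 tags at 12 h against 141 at 1 h, and 29.2 kb from Tmem170b another had 23.8 tags at 12 h against 137 at 1 h. At 12 h these 4 sites still lay above the median of all halved sites. The other leading ratios were at weaker sites, 4.13 kb from Morn3, 436 kb from Dcdc2c and 36.2 kb from Hopx (a homeodomain gene). Others of these lay inside Slc23a4 (a nucleobase transporter gene) and Sgsm1. At all of these weaker sites the 12 h values were 8.49 to 13.5 tags and the 1 h values 50.7 to 90.1. Their 12 h tags thus lay near the lowest listed value of 6.96.

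**Figure D3:**
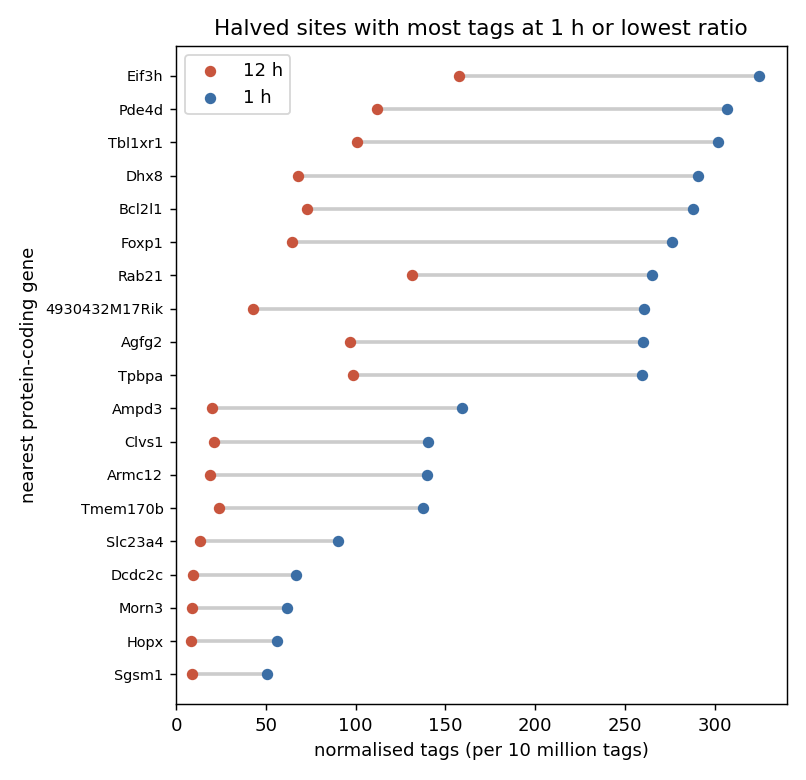
Normalised tags at 12 h (red) and 1 h (blue) of the halved sites with most tags at 1 h or with the lowest ratio, by nearest protein-coding gene. The 12 h values spread from 8.49 to 157 tags, and the site near Ampd3 has the lowest ratio.

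At the edge of the rule the choice of members is fine. Just inside it, 3 sites within Slit3, 9.90 kb from Picalm and 3.05 kb from Errfi1 held 19.5, 25.9 and 14.6 tags at 12 h against 39.0, 51.8 and 29.2 at 1 h. Just outside, sites within Tgm2, Rapgef1 and Apool held 23.9, 19.4 and 16.9 tags at 12 h against 47.7, 38.7 and 33.7 at 1 h. In all, 6 sites had a ratio of exactly 0.5, these 3 among them, and 29 other shared sites were under 0.51. The deposited tags are rounded, and 596 sites met the rule when the ratio was taken from whole tags.

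A shared site that was not halved lay within 100 kb of 33.7% (30.1 to 37.6%) of halved sites and of 38.4% (36.2 to 40.6%) of other shared sites. Of 1818 protein-coding genes with a shared site within 25 kb of the gene span, 580 (31.9%) had a halved one, which is 2.65% of all 21896 protein-coding genes. The share was 28.7% for genes with 1 shared site, which make up 428 of the 580, and 46.6% for genes with more. Among the 326 genes with more than 1 shared site, all sites were halved at 22, and 130 had both kinds. At 107 of those 130 the strongest shared site at 1 h was a halved one, and at 48 of the 107 a site that was not halved was the strongest at 12 h. Both counts follow in part from the rule. Halved sites held more tags at 1 h, a median of 47.5 against 24.4 at other shared sites. A site that was not halved and led at 1 h must also lead every halved site at 12 h. Neighbouring genes can count the same site, and these 130 genes held 116 distinct halved sites.

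No gene span held more than 2 halved sites, and 12 genes held 2, of which the 5 with most tags at 1 h are given here. The first of them was Bcl2l1, which encodes the survival protein Bcl-xL. Its 2 halved sites held 72.9 tags at 12 h against 288 at 1 h (chr2:152785649-152785931) and 77.2 tags at 12 h against 204 at 1 h (chr2:152806127-152806409). Its remaining shared sites, at 152820327 and 152792541, held 122 tags at 12 h against 189.5 at 1 h and 36.4 tags at 12 h against 37.4 at 1 h. The strongest site at 1 h was thus the second lowest at 12 h. In M1ap, a meiosis gene, and in Septin9, a cytoskeletal GTPase gene, both shared sites were halved. In M1ap they held 68.5 tags at 12 h against 207 at 1 h and 22.8 tags at 12 h against 90.9 at 1 h. In Septin9 they held 33.7 tags at 12 h against 102 at 1 h and 39.6 tags at 12 h against 97.1 at 1 h. Both shared sites of Chst11, a chondroitin sulfotransferase gene, were halved as well, with 32.4 tags at 12 h against 81.5 at 1 h and 25.2 tags at 12 h against 53.6 at 1 h. In Vmp1, an autophagy gene, the halved sites held 47.0 tags at 12 h against 106 at 1 h and 10.5 tags at 12 h against 31.1 at 1 h, while a weak site that was not halved held 10.3 tags at 12 h against 10.9 at 1 h.

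No window of 100 kb held more than 3 halved sites. Of the windows that reached 3, the 3 whose halved sites had most summed tags at 1 h are given here. One lay 66.1 to 123 kb from Tbl1xr1, where 3 halved sites held 27.1, 52.8 and 101 tags at 12 h against 75.1, 128 and 302 at 1 h, and the fourth shared site held 117 tags at 12 h against 183 at 1 h. Another lay around the highest peak of both lists, 86.0 kb from Ptpn1, a tyrosine phosphatase gene. That peak held 443 tags at 12 h against 433 at 1 h (log2 ratio 0.033, -0.030 to 0.095), while the 3 halved sites around it held 22.7, 48.6 and 63.2 tags at 12 h against 47.3, 132 and 149.6 at 1 h. In the last of these windows, 89.5 kb or more from Postn and Supt20, all 3 shared sites were halved. They held 60.8, 26.2 and 21.4 tags at 12 h against 142, 72.2 and 60.8 at 1 h. A further 4 sites there were in the 1 h list only. Over all halved sites, 16.7% (13.9 to 19.9%) had another within 100 kb, and 14.2% (12.6 to 15.8%) of the other shared sites had a halved one that near. Of the 1 h peaks within 100 kb of a halved site, 57.3% were not listed at 12 h, against 48.6% around the other shared sites. These counts of neighbour pairs are not independent and were not tested.

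**Figure D4:**
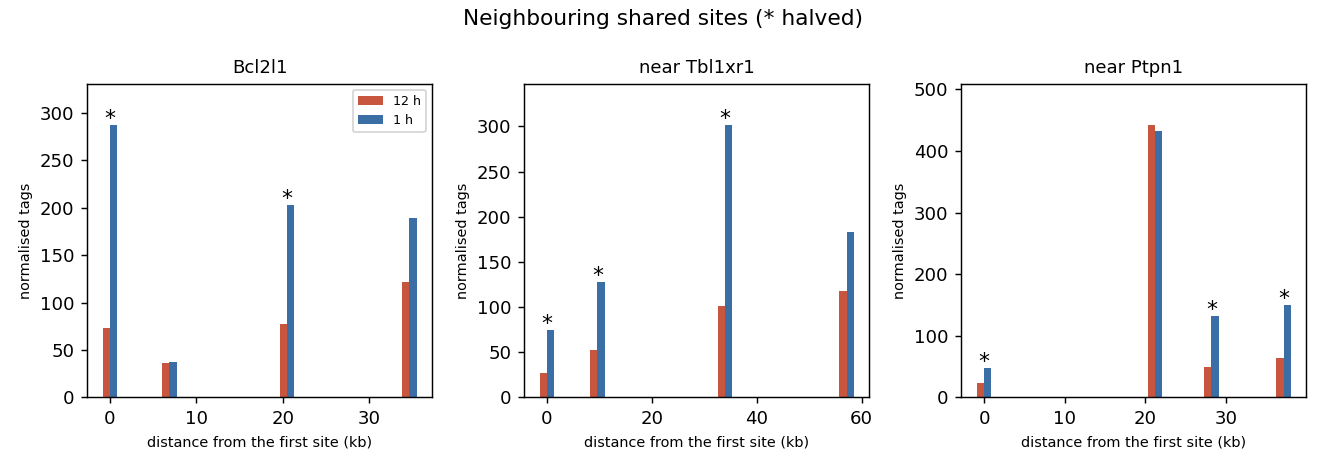
Normalised tags at 12 h (red) and 1 h (blue) of neighbouring shared sites at Bcl2l1, near Tbl1xr1 and near Ptpn1, by distance from the first site in kb; stars mark halved sites. At Ptpn1 the tallest site, with 443 tags at 12 h, stands between halved ones.

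Established glucocorticoid target genes held halved sites at a share of sites not far from that of all shared sites. Of 28 such genes, 18 had a shared site within 25 kb and 10 (55.6% of the 18, against 31.9% over all genes) had a halved one. These were Per1, Cdkn1a, Mt1, Mt2, Sgk1, Zbtb16, Errfi1, Zfp36, Pdk4 and Tgm2. By sites, 10 of 34 were halved (29.4%), close to the 24.6% of all shared sites, with a median log2 ratio of -0.57 against -0.49 over all. Per1, a clock repressor gene, had 1 halved site (43.5 tags at 12 h against 128.5 at 1 h) and 1 other (90.3 tags at 12 h against 106 at 1 h), so that its stronger site at 1 h was the weaker at 12 h. Cdkn1a, which encodes the cell cycle inhibitor p21, had its only shared site inside the gene (chr17:29094569-29094851), with 44.2 tags at 12 h against 112 at 1 h (log2 ratio -1.35, -1.51 to -1.18).

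Mt1 and Mt2, neighbouring genes of metal-binding proteins whose hormone response is well known, counted the same 3 sites. The site 1.01 kb from Mt2, at the window of Gm39227 shown above, held 46.2 tags at 12 h against 110.5 at 1 h (log2 ratio -1.26, -1.42 to -1.10). The site at the Mt1 start held 12.8 tags at 12 h against 27.3 at 1 h (-1.09, -1.42 to -0.78), and the last of the 3, not halved, 12.0 tags at 12 h against 15.3 at 1 h. A further 4 target genes are given here by a choice made after their values were seen. Pdk4, a pyruvate dehydrogenase kinase gene, had a halved site with 29.2 tags at 12 h against 74.2 at 1 h. Zfp36, an mRNA decay factor gene, had 17.5 tags at 12 h against 48.1 at 1 h. Within 25 kb of Tgm2, a transglutaminase gene, a halved site held 25.5 tags at 12 h against 76.7 at 1 h. That site lay nearer to D630003M21Rik, at 14.4 kb. The site just outside the rule lay within Tgm2 itself. At Zbtb16, a zinc finger factor gene, 1 of 7 shared sites was halved, a weak one with 7.77 tags at 12 h against 18.8 at 1 h.

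In the circadian clock list 2 of 5 genes with a shared site had a halved one, namely Per1 and Ciart, a clock repressor gene whose site held 16.8 tags at 12 h against 60.4 at 1 h. In the list of MAP kinase and growth signal inhibitors it was 1 of 3, Errfi1, an inhibitor of the EGF receptor, at the edge of the rule as given above. The AP-1 and MAF list also had 1 of 3, with 7.98 tags at 12 h against 32.5 at 1 h in a site 10.1 kb from Junb and inside Rnaseh2a. In the cAMP list 2 of 5 genes had one. Besides Pde4d, whose other shared site held 51.0 tags at 12 h against 95.7 at 1 h, this was Adcy7, an adenylyl cyclase gene, with 16.0 tags at 12 h against 39.0 at 1 h in a site inside its neighbour Brd7. By sites the shares in these lists were 33.3% of 6 clock sites, 25% of 4 inhibitor sites, 33.3% of 3 AP-1 and MAF sites and 33.3% of 6 cAMP sites. With so few sites none of these can be told apart from the 24.6% of all shared sites, nor the shares of genes from 31.9%.

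In the actin and adhesion list 7 of 14 genes with a shared site had a halved one (50%, against 31.9% over all genes). By sites 7 of 21 were halved (33.3%, median log2 ratio -0.68), against 24.6% and -0.49 over all shared sites. With 14 genes and 21 sites, neither share can be told apart from that over all. Parva, a focal adhesion gene, held 25.6 tags at 12 h against 117 at 1 h (chr7:112469969-112470251), and Actn4, an actin crosslinker gene, held 24.9 tags at 12 h against 100.5 at 1 h (chr7:28952723-28953005). Tns3, a tensin gene, held 31.5 tags at 12 h against 74.9 at 1 h. Itga5, an integrin subunit gene, held 37.3 tags at 12 h against 74.6 at 1 h, a ratio of exactly 0.5. The others were Itgb1, Pxn and Tns1, where 1 of 7 shared sites was halved. In the collagen and matrix list 4 of 7 genes had a halved site and 3 of 7 sites were halved (42.9%, median log2 ratio -0.83), too few to set apart from the 24.6% of all shared sites. Col3a1 and Col5a2, adjacent fibrillar collagen genes, share a site of 89.0 tags at 12 h against 238 at 1 h. The basement membrane genes Col4a2 and Col4a1 each had their own. The site of Col4a2 (chr8:11381987-11382269) held 55.1 tags at 12 h against 228 at 1 h and that of Col4a1 33.9 tags at 12 h against 103 at 1 h.

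In the insulin and PI3K list 3 of 5 genes had a halved site. By sites 3 of 11 were halved (27.3%, median log2 ratio -0.77), near the 24.6% of all shared sites, whose median was -0.49. Irs2, an insulin receptor substrate gene, held 9.92 tags at 12 h against 44.0 at 1 h. Sesn1, a stress-response gene whose product restrains growth signalling, had 1 halved site (16.8 tags at 12 h against 38.3 at 1 h) beside a stronger one that was not (87.7 tags at 12 h against 141 at 1 h). In the TGF-beta and BMP list 1 of 4 genes had one, Tgfb2, a growth factor gene, with 12.8 tags at 12 h against 25.8 at 1 h, and 1 of 5 sites was halved (20%).

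The inflammation and NF-kappaB list was the one without a halved site. Its 7 genes with a shared site, which were Nfkb1, Nfkbiz, Tnfaip3, Cxcl1, Cxcl2, Cxcl5 and Csf1, had 6 sites between them, with a median log2 ratio of -0.20. With 6 sites, this count cannot be told apart from the 24.6% of all shared sites, and within 100 kb 2 of 9 genes had a halved site.

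**Figure D5:**
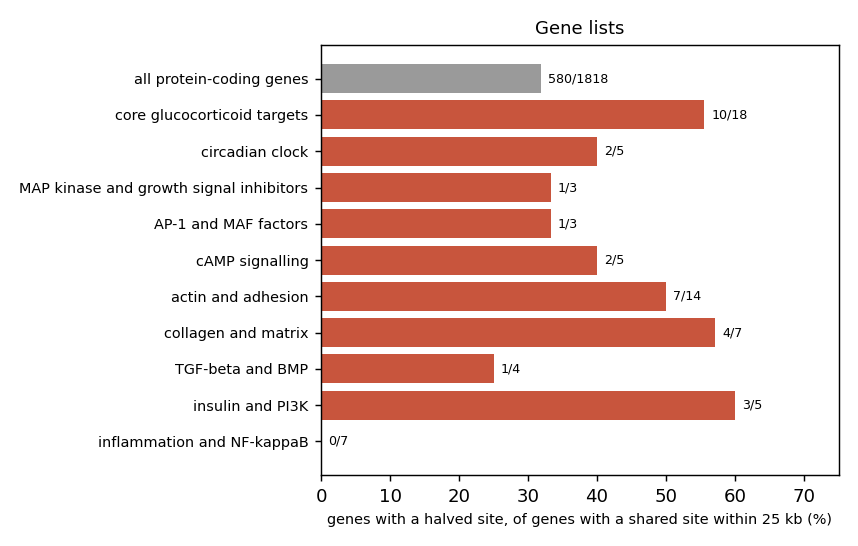
Share of genes with a halved site, of those with a shared site within 25 kb, for each gene list (red) and for all protein-coding genes (grey, 580 of 1818); counts stand beside the bars. Most lists rest on 7 genes or fewer, and genes with more sites have more chances to hold a halved one.

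Position relative to genes was not used to choose the sites. Inside protein-coding gene spans lay 43.2% (39.3 to 47.2%) of halved sites, 40.0% (37.7 to 42.2%) of other shared sites and 44.5% of sites in the 1 h list only. A gene end here is either edge of the gene span, whatever the strand, so start and finish were not told apart. Within 1 kb of a gene end lay 26 halved sites, or 4.34% (2.98 to 6.28%). This compares with 2.23% (1.65 to 3.01%) of other shared sites and 3.94% of those in the 1 h list only. Promoter windows were overlapped by 2.67% (1.65 to 4.29%) of halved sites and 1.47% (1.01 to 2.13%) of other shared sites. Each of these pairs of intervals overlaps, though only just for gene ends, and no p-value is given because sites are not replicates. Halved sites outside genes lay a median of 35.5 kb away, against 42.6 kb for other shared sites. By chromosome the share of shared sites that were halved ran from 16.3% on chromosome 16 to 28.8% on chromosome 8, and each of the 20 intervals holds the overall 24.6%.

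Of the 8 strongest halved sites within 1 kb of a gene end, 7 are given here. A site 64 bp from A4galt, a glycolipid synthase gene (chr15:83226517-83226799), held 27.4 tags at 12 h against 129 at 1 h (log2 ratio -2.23, -2.43 to -2.04). A site 131 bp from H6pd, whose enzyme supplies the cofactor for regenerating active glucocorticoid (chr4:149979202-149979484), held 23.9 tags at 12 h against 112 at 1 h (-2.22, -2.43 to -2.01). Its 12 h and 1 h peak centres lay 175 bp apart, so the windows overlapped only in part. The Ciart site given above lay 583 bp from the nearer edge of that gene. A site 486 bp from Orm1, an acute phase protein gene, held 38.4 tags at 12 h against 77.5 at 1 h. A site 470 bp from Il6ra, an interleukin receptor gene, held 19.8 tags at 12 h against 70.6 at 1 h. Both Pld1 and Pla1a encode phospholipases. The site 841 bp from the nearer edge of Pld1 held 27.0 tags at 12 h against 72.3 at 1 h. The one 46 bp from the nearer edge of Pla1a held 24.2 tags at 12 h against 60.2 at 1 h. The log2 ratios of these 7 sites ran from -2.23 to -1.01.

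The untreated library, also not used by the rule, held a mean of 11.6 raw tags in the windows of halved sites and 11.7 in those of other shared sites, where 10.8 would be expected from its average per base. Among the 6 bands of 1 h tags that held halved sites, the mean was lower at halved sites in 5. At 20 to under 30 tags at 1 h it was 8.98 at halved and 12.7 at other shared sites, and at 30 to under 50 tags, the band with most halved sites, it was 10.9 at halved and 13.0 at other shared sites. The exception was 50 to under 100 tags, with 13.0 at halved and 12.7 at other shared sites. A site had to stay 6-fold over this library at 12 h to be listed, which limits how many untreated tags a weak halved site can have. The focus ratio, by which the caller measures how sharply tags flank the peak centre, had a median at halved sites of 0.843 at 12 h against 0.884 at 1 h. At the other shared sites it was 0.848 at 12 h and 0.851 at 1 h. Among halved sites the 1 h median rose with 1 h tags, from 0.848 at 15 to under 20 tags to 0.917 at 200 and over. The 12 h and 1 h focus ratios were not compared at equal tags. By band of 1 h tags, the 1 h median was higher at halved sites in 4 of 6. It was 0.867 at halved and 0.836 at other shared sites at 20 to under 30 tags, and 0.888 at halved and 0.903 at other shared sites at 50 to under 100 tags. The 12 h and 1 h peak centres were a median of 17 bp apart at halved sites, and at 17 of the 599 they were over 100 bp apart.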

How the data were processed

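Per the submitters' processing notes, the tools were bcl2fastq 2.17, Bowtie2 2.2.6 and HOMER, with the mm10 build. Per the file headers, peaks were called in each library by HOMER findPeaks (factor style, false discovery rate 0.001, tag threshold 75, minimum fold 6 against the control and against 10 kb around). The treated lists used the untreated ChIP library as control, and peaks were 282 bp wide at 1 h and 302 bp wide at 12 h. The deposited signal is the normalised tag count per peak. The ratio (fold) columns, the focus ratio, a deposited fraction, and the peak score are the authors' values from the caller. Deposited raw tag counts were scaled by the authors to the untreated library, and undoing that scale gave whole counts for 100% of peaks (within 0.1). The count of the single untreated peak was deposited unscaled. Windows listed at 0.5 untreated tags were kept as listed. Deposited p-values were not used.

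Genes came from RefSeq GRCm38.p6, by span; all 246 entries of the 10 gene lists matched. A genome sequence was not used here, so the planned motif count covers promoter windows only. Sites and genes were named by rank of 1 h tags or ratio, by gene list (up to 4 genes each), by number of halved sites, by 100 kb window, by distance to gene ends (up to 8) and by promoter window. The members and lists were chosen with earlier results of these data known. Shares have Wilson and tag ratios Clopper-Pearson 95% intervals. Both cover counting error only, since each condition has 1 library. Tags lack molecular identifiers, so copies of 1 molecule could not be told apart in the counts. Pairing was tested on simulated data. Python 3.11.15, scipy 1.17.1 and pandas 2.3.3 were used. Alternatives covered overlap, width, scaling, threshold, distance and motif. The input library, whose label gives corticosterone, entered none of the comparisons. A site that these rules name is not reported here.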

Additional observations from a re-analysis of the deposited data

Results flagged for a closer look

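The untreated library has a single listed peak, outside the sites described above, that stood above its input control. It lay 148 bp from Pgk1 (chromosome X, 106186881 to 106187023) and held 40.0 normalised tags, 44.2 times the input control in the caller's list. The labels give the input sample as treated with corticosterone, while the list's header names an untreated input, so which input this fold rests on is uncertain. The nearest halved site lay 20600 kb away.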

How the results depend on the processing

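Of 19 alternatives, 14 left their result within 1.5 times a count or within the interval of a share. The number of halved sites was 593 with an overlap of 0.5 of the shorter peak, 582 with centres within 100 bp, 691 with tags per base, 506 with both peaks at 1.5 times the lowest tags and 596 from whole tags. It was 228 with the median ratio of shared sites set to 1, and 369 when the counting interval had to lie below 0.5, all of them among the 599. The share with another halved site within reach was 13.5% at 50 kb and 22.7% at 200 kb, which a shorter or longer distance gives by construction. The share of promoter windows with the receptor motif was 0% with up to 1 mismatch, that is 0 of 16, and 25% for the hexamer alone. Core genes with a halved site numbered 8 within 10 kb and 14 within 100 kb. The alternatives on whole tags and on the interval were chosen after seeing the data. Leaving out a library was not possible. No paired analysis was possible because each condition has 1 library. Tag numbers limit the precision of weak sites: the Mt1 site, with 12.8 tags at 12 h against 27.3 at 1 h, has an interval of the log2 ratio from -1.42 to -0.78.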

Other observations

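Among the halved sites, 1 stood apart in its fold over the surrounding 10 kb, and what the low count around it reflects was not tested. At chr4:122019946-122020228, 281 kb from the nearest protein-coding gene Gm10573, the fold over the local region was 5106 at 12 h and 6306 at 1 h, against medians over halved sites of 10.4 at 12 h and 24.9 at 1 h. It held 16.3 normalised tags at 12 h and 40.4 at 1 h, and 2 raw tags in the untreated library.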
